A study of Gallus gallus with 14 samples.

Results

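Genes that carry cells through DNA replication and mitosis, 40 in all, were described in the retina of young chickens across 14 RNA libraries. They were chosen by symbol, as G1 cyclins, replication factors, mitotic kinases, spindle checkpoint proteins, chromosome and spindle proteins and cytokinesis proteins. Only symbols present among the 18631 rows of the deposited table were taken, so that all 40 were found follows from the choice. Other division genes, among them CCNB1, MCM7 and AURKB, are absent from that table and could not be described. Of these 40, 19 had a mean level under 1 CPM, where CPM is the number of reads of a gene per 1000000 reads, and 21 reached 1 CPM and were tested between groups.

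The birds were wild type White Leghorn chickens, a layer breed. Lens retinas came from 7 eyes fitted at an age of 3 days with a minus lens (-10 dioptres), worn for 1 day before collection. Control retinas came from 7 other eyes without a lens, also listed at an age of 3 days. A minus lens moves the image behind the retina, and over days the eye of a young chick grows longer in response, which makes lens wear a model of myopia. Lens titles carry the numbers 1 to 4 and 12 to 14, while control titles carry 10, 17 to 19 and 21 to 23. What the numbers stand for, the handling of control eyes, the birds' sex and whether each retina is from its own bird are not in the labels, so p-values measure the spread among the libraries, part of which may be technical.

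A cell that divides first builds D-type cyclins, which drive it out of rest, then loads the MCM helicase on its DNA, copies the DNA with the help of the PCNA clamp and a supply of deoxynucleotides, and finally raises cyclin B and the kinases CDK1, PLK1 and AURKA to enter mitosis. Many of the later genes are switched on together only in dividing cells and are repressed in resting ones, so their RNA is a common trace of proliferation. Most cells of the chick retina have left the cycle by hatching, with progenitors left mainly at the retinal margin, and Mueller glia, the radial support cells, can divide again after injury. In RNA from whole retina, fewer cells of a type and less RNA per cell cannot be told apart.

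The libraries differed in ways that touch the results. Lens libraries 1 to 4 stood apart from the other libraries in many genes, so the lens sets are given both together and apart. That split was chosen with earlier results of these data known. Adjusted p-values for the sets apart therefore describe these libraries and are not independent tests. Reads of genes on chromosome W, which female birds carry, reached 604 to 655 CPM in 7 libraries. These were lens libraries 1, 2, 3 and 13 and control libraries 19, 21 and 23, which by these reads are female. The other 7 had 1.54 to 3.11 CPM, as in males. W-linked reads were thus present in 3 of lens libraries 1 to 4, 1 of lens libraries 12 to 14 and 3 control libraries, so sex was not balanced between the sets. The values rest on 34.1 to 49.3 M reads per lens library and 27.7 to 40.2 M reads per control library, of which 29.9% to 31.9% lay on the listed genes. At this depth 1 read was worth 0.0203 to 0.0361 CPM, and a gene listed at 0 may have had up to 0.0609 to 0.108 CPM, the worth of 3 reads. These limits cover counting error only. CPM values are not divided by gene length, so they compare libraries for a gene and do not rank genes by their number of transcripts.

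On the deposited CPM scale, levels under 1 CPM were most frequent among the genes of mitosis. In the spindle checkpoint 4 of 5 genes lay under 1 CPM, in cytokinesis 3 of 5, in mitotic entry and among chromosome and spindle proteins 4 of 7 each, among G1 cyclins and CDK2 2 of 5, and in DNA replication and nucleotide supply 2 of 11. The share over the 40 genes was 47.5%, beside 40.9% of all rows of the table and 31.2% of the rows annotated with a coding sequence. At least 5 CPM was reached by 7 of the 40, namely CCND1, MCM4, MCM6, RRM1, TYMS, FBXO5 and BUB3, and 5 averaged under 0.1 CPM, namely CDC6, CCNB3, PLK1, CDC20 and KIF20A. Under 1 CPM were 19 genes in the mean of the lens libraries and 20 in that of the control libraries. When each library was rescaled to 1000000 over the listed genes alone, 9 of the 40 stayed under 1. Shares by role depend on the cut and scale and were not recomputed there.

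**Figure D1:**
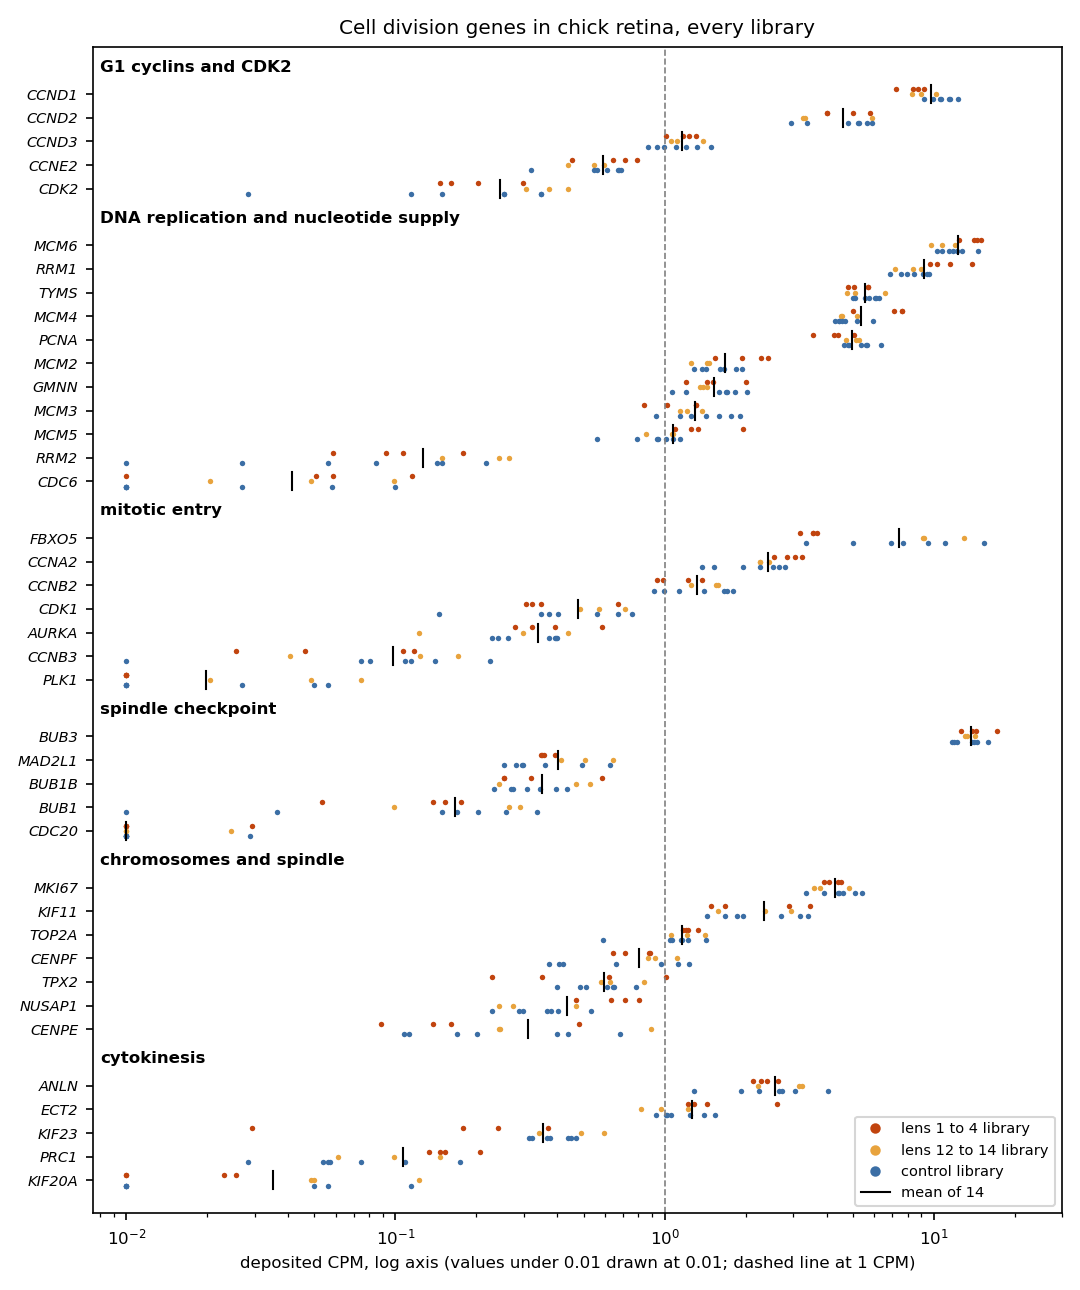
Level of each of the 40 genes in each library, by role, on a logarithmic axis in deposited CPM, with lens libraries 1 to 4, lens libraries 12 to 14 and control libraries as coloured points, the mean of 14 as a black bar and a dashed line at 1 CPM (values under 0.01 are drawn at 0.01). The bars of 19 genes lie left of the line, and the points of FBXO5 are spread from 3.20 to 15.4 CPM.

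The lowest values belonged to regulators of mitotic entry and exit. CDC20, which activates the anaphase-promoting complex, was listed at 0 in 11 of 14 libraries, and in the other 3, lens libraries 3 and 14 and control library 22, it had 0.0294, 0.0244 and 0.0287 CPM, the worth of 1 read. PLK1, the polo-like kinase of mitotic entry, was listed at 0 in lens libraries 1 to 4, had 0.0204, 0.0743 and 0.0487 CPM in lens libraries 12 to 14, and was listed at 0 in 4 control libraries and had up to 0.0563 CPM in the other 3. These levels lie near the worth of 3 reads, so no difference was detectable at this depth. The cytokinesis motor KIF20A was listed at 0 in 6 libraries and CDC6, which loads the MCM helicase, in 5. RRM2, the S-phase subunit of ribonucleotide reductase, CCNB3 and the checkpoint kinase BUB1 were each listed at 0 in 1 library.

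CDK1, the kinase that drives mitosis, had 0.305, 0.322, 0.674 and 0.347 CPM in lens libraries 1 to 4, 0.711, 0.569 and 0.486 CPM in lens libraries 12 to 14, and in control libraries a lowest level of 0.145, a median of 0.402 and a highest of 0.758 CPM. The groups overlapped throughout, and lens library 3 lay well above lens libraries 1, 2 and 4. At these levels CDK1 rested on between 4.99 and 35.0 reads per library. Over 5862 bases CDK1 shares its locus with LOC112532726 on the opposite strand, which averaged 8.15 CPM in lens libraries and 11 CPM in control libraries. The library kit keeps strand, but no label or note says whether the counting used it, so reads of the pair may have been mixed.

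Other genes of the group under 1 CPM overlapped between the groups. CENPF, a kinetochore protein, averaged 0.859 ± 0.152 CPM in lens libraries and 0.741 ± 0.365 CPM in control libraries (SD, n = 7 each). TPX2, which activates AURKA on the spindle, averaged 0.610 ± 0.268 CPM in lens libraries and 0.583 ± 0.128 CPM in control libraries. AURKA itself averaged 0.348 ± 0.145 CPM in lens libraries and 0.327 ± 0.0785 CPM in control libraries. The remaining low genes, CCNE2, CDK2, BUB1B, MAD2L1, CENPE, NUSAP1, KIF23 and PRC1, had means over 14 libraries between 0.107 CPM (PRC1) and 0.590 CPM (CCNE2). MAD2L1 is a checkpoint protein and PRC1 a bundler of the midzone of the spindle. In both, 7 of 7 lens libraries lay above the control median, while the ranges overlapped. How large a share of all genes does so was not counted, and PRC1 rested on 1.00 to 8.98 reads per library. MAD2L1 had 0.347 to 0.644 CPM in lens libraries and 0.252 to 0.629 CPM in control libraries, and PRC1 had 0.0610 to 0.207 CPM in lens libraries and 0.0282 to 0.174 CPM in control libraries. Summed over the 19 genes under 1 CPM, the level was 4.89 to 5.71 CPM in lens libraries 1 to 4, 5.81 to 7.10 CPM in lens libraries 12 to 14, beside 4.51 to 6.10 CPM in control libraries.

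Lens wear was then compared with control over all 7 and 7 libraries. None of the 21 tested genes passed an adjusted p of 0.05 in limma on log2(CPM + 1), and none of all 11005 genes tested did (0%). At an unadjusted p under 0.05, 2 of the 21 passed, CCND1 and MCM4, beside 14.7% of all genes tested. An exact rank-sum test called 0 of 21 and 0 of 11005, but its smallest p here, 0.000583, left little room for a call after adjustment. No tested member had lens libraries apart from all control libraries, beside 0.291% of all genes. The log2 difference was positive for 12 of the 21 and negative for 9, with a median of 0.04, against 0.02 over all genes tested.

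CCND1, the D-type cyclin of G1, had the smallest p of the 21 in this comparison. Its gene lies at chr5:17778656-17791884 on the plus strand of GRCg6a. It had 8.40, 7.22, 8.73 and 9.18 CPM in lens libraries 1 to 4, 8.95, 10.2 and 8.33 CPM in lens libraries 12 to 14, and in control libraries 9.23 at the lowest, 10.7 at the median and 12.3 at the highest. The control median was above each of the 7 lens libraries, and the share of all genes with such a pattern was not counted. Lens library 13 alone lay above the lowest control libraries, numbers 10 and 17. CCND1 averaged 8.72 ± 0.923 CPM in lens libraries and 10.8 ± 1.04 CPM in control libraries (SD, n = 7 each), a difference of -0.28 on the log2(CPM + 1) scale (SE 0.075, limma adjusted p = 0.166).

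The other D-type cyclins did not show that pattern. CCND2 had 3.27 to 5.92 CPM in lens libraries and 2.95 to 5.92 CPM in control libraries, and CCND3 had 1.01 to 1.39 CPM in lens libraries and 0.868 to 1.49 CPM in control libraries. Their log2 differences were -0.07 (SE 0.145) and 0.04 (SE 0.079), with limma adjusted p of 0.861 and 0.842. CCND2 overlaps LOC112530139 and CCND3 overlaps BYSL, both on the opposite strand.

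PCNA, the sliding clamp that tethers DNA polymerase, had 5.08, 4.41, 4.25 and 3.58 CPM in lens libraries 1 to 4, 5.16, 4.73 and 5.29 CPM in lens libraries 12 to 14, and 4.66, 5.38 and 6.35 CPM at the lowest, median and highest control library. Each of the 7 lens libraries lay under the control median, while the ranges overlapped. How large a share of all genes does so was not counted. The log2 difference of PCNA was -0.17 (SE 0.084, limma adjusted p = 0.358). MCM3, a helicase subunit, likewise lay under the control median in 7 of 7 lens libraries, with 0.838 to 1.38 CPM in lens libraries and 0.928 to 1.91 CPM in control libraries (log2 difference -0.15, SE 0.097, limma adjusted p = 0.465).

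Widely used marks of dividing cells, MKI67 and TOP2A, did not pass the threshold. MKI67, the Ki-67 protein that coats mitotic chromosomes, lies at chr6:34315797-34340214 and had 4.42, 4.53, 4.10 and 3.90 CPM in lens libraries 1 to 4, 3.77, 4.85 and 3.59 CPM in lens libraries 12 to 14, and 3.36, 4.45 and 5.43 CPM at the lowest, median and highest control library. TOP2A, the topoisomerase that untangles sister chromosomes, had 1.22, 1.33, 1.2 and 1.17 CPM in lens libraries 1 to 4, 1.06, 1.21 and 1.41 CPM in lens libraries 12 to 14, and 0.590, 1.15 and 1.43 CPM at the lowest, median and highest control library. Lens values of both genes lay inside the control range. The log2 differences were -0.08 for MKI67 (SE 0.089, limma adjusted p = 0.708) and 0.10 for TOP2A (SE 0.086, limma adjusted p = 0.617). MKI67 overlaps PTPRE over 1097 bases on the same strand, which leaves some reads uncertain, and PTPRE averaged 12 CPM in lens libraries and 12.2 CPM in control libraries.

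**Figure D2:**
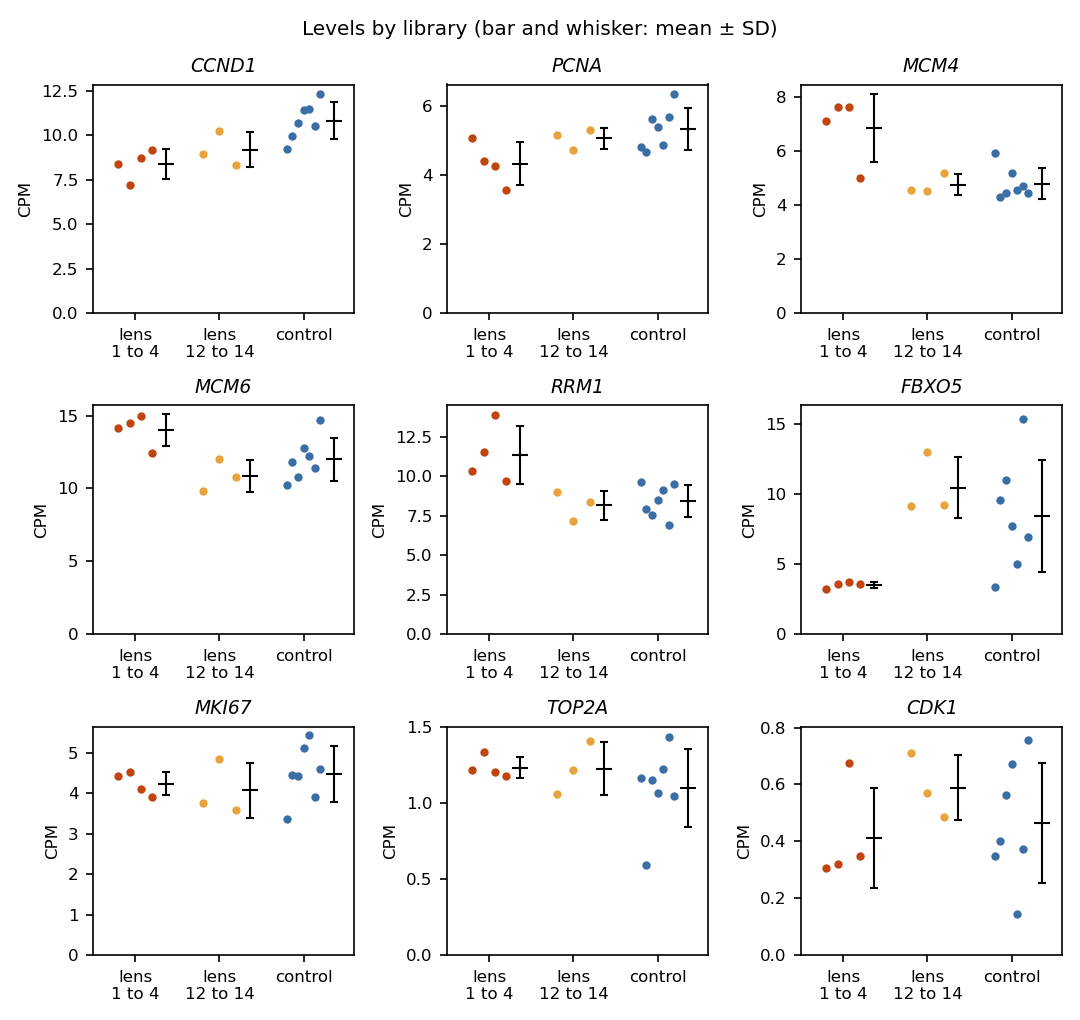
Level in CPM of 9 genes in each library, with lens libraries 1 to 4, lens libraries 12 to 14 and control libraries from left to right, and the mean with SD as a black bar and whiskers beside the points. FBXO5 sits at 3.20 to 3.69 CPM in lens libraries 1 to 4, at 9.14 to 13 CPM in lens libraries 12 to 14 and over 3.35 to 15.4 CPM in control libraries, while MKI67 and TOP2A overlap between sets.

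Lens libraries 1 to 4 alone differed from the control libraries in 4 of the 21 tested genes. MCM4 and RRM1, both of DNA replication, were higher, and CCND1 and FBXO5 were lower. Over all genes tested 13.4% passed the same threshold, 9.4% higher and 4.05% lower. The share of those calls that were higher, 69.9%, was 50.4% with median-of-ratios scaling, 42.6% with trimmed means of M values and 50.8% with quantile normalization, under each of which the 4 genes kept their sign and their call. Without adjustment 9 of the 21 had p under 0.05, beside 30.2% of all genes. In RRM1 and CCND1, 2 of the 21, lens libraries 1 to 4 did not overlap the control libraries, beside 9.78% of all genes, 7.05% higher and 2.73% lower. The median log2 difference was 0.02 over the 21, against 0.04 over all genes.

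MCM4, a subunit of the MCM helicase at chr2:108001803-108013892, had 7.13, 7.63, 7.65 and 5.02 CPM in lens libraries 1 to 4, 4.55, 4.53 and 5.20 CPM in lens libraries 12 to 14, and 4.29, 4.56 and 5.93 CPM at the lowest, median and highest control library. Lens libraries 1 to 3 lay above all control libraries and lens library 4 lay among them. The log2 difference between lens libraries 1 to 4 and control was 0.43 (SE 0.111, limma adjusted p = 0.0224). Among libraries with W-linked reads it was 0.57 (3 lens, 3 control), and among those near 0 it was 0.05, with 1 lens library against 4.

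RRM1, the large subunit of ribonucleotide reductase, which makes deoxynucleotides, lies at chr1:197157405-197175422. It had 10.3, 11.5, 13.9 and 9.71 CPM in lens libraries 1 to 4, 8.99, 7.18 and 8.35 CPM in lens libraries 12 to 14, and 6.89, 8.47 and 9.62 CPM at the lowest, median and highest control library. Lens libraries 1 to 4 all lay above the highest control library, lens library 4 by a small margin. The log2 difference was 0.38 (SE 0.105, limma adjusted p = 0.0285), and it was 0.35 among libraries with W-linked reads and 0.26 among those near 0.

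CCND1 in lens libraries 1 to 4 lay below the lowest control library in each of the 4, with a log2 difference of -0.33 (SE 0.085, limma adjusted p = 0.0226). The gap between lens library 4, at 9.18 CPM, and control library 10, at 9.23 CPM, was narrow. Within the libraries with W-linked reads the difference was -0.49, and within those near 0 it was -0.12.

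FBXO5, also called EMI1, inhibits the anaphase-promoting complex so that cyclins build up before mitosis. The gene lies at chr3:49696700-49702870 on the minus strand. FBXO5 had 3.20, 3.56, 3.69 and 3.55 CPM in lens libraries 1 to 4, 9.14, 13 and 9.23 CPM in lens libraries 12 to 14, and 3.35, 7.71 and 15.4 CPM at the lowest, median and highest control library. Control library 10 lay among lens libraries 1 to 4, and the other control libraries, from 5.03 CPM in number 21 up, lay above them. The log2 difference between lens libraries 1 to 4 and control was -0.95 (SE 0.266, limma adjusted p = 0.0311), with -0.74 among libraries with W-linked reads and -1.10 among those near 0. The control spread in FBXO5, an SD of 4.01 CPM around a mean of 8.42 CPM, exceeded that of any other tested gene of the 40 on the log2 scale used.

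Leaving out 1 library ended some of these calls, while the log2 differences kept their sign, at 0.38 to 0.55 for MCM4, 0.29 to 0.45 for RRM1, -0.37 to -0.27 for CCND1 and -1.12 to -0.80 for FBXO5. Without lens library 2 none of the 21 passed, without lens library 1 RRM1 alone passed, without lens library 3 CCND1 alone passed, and without control library 17 or 18 MCM4 and CCND1 passed. FBXO5 also missed the threshold without lens library 4. An exact rank-sum test, whose smallest p here is 0.00606, called 0 of the 21 and 0 of the 11005 genes.

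The other helicase subunits among the members had log2 differences of both signs between lens libraries 1 to 4 and control, and none passed. MCM7 was not in the table. MCM6, at chr7:30665923-30679253, had 14.2, 14.5, 15.0 and 12.4 CPM in lens libraries 1 to 4, 9.79, 12 and 10.7 CPM in lens libraries 12 to 14, and 10.3, 11.8 and 14.7 CPM at the lowest, median and highest control library. Its log2 difference was 0.21 (SE 0.089, limma adjusted p = 0.123), while those of MCM5, MCM2 and MCM3 were 0.32, 0.23 and -0.19, with limma adjusted p of 0.0773, 0.159 and 0.313. MCM6 overlaps LCT on the same strand over 1182 bases, and LCT averaged 4.22 ± 0.852 CPM in lens libraries 1 to 4, 1.54 ± 0.319 CPM in lens libraries 12 to 14 and 1.88 ± 0.676 CPM in control libraries (SD, n = 4, 3 and 7). The part of LCT reads in the MCM6 value was not tested. The summed level of MCM2 to MCM6 was 21.9 to 28.0 CPM in lens libraries 1 to 4, 18.1 to 20.2 CPM in lens libraries 12 to 14, beside 18.3 to 23.5 CPM in control libraries.

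PCNA and CCNA2, the cyclin of S phase and mitotic entry, missed the threshold between lens libraries 1 to 4 and control, with log2 differences of -0.25 (limma adjusted p = 0.0994) and 0.33 (limma adjusted p = 0.112). Geminin, GMNN, which blocks repeat loading of the MCM helicase on DNA, had a difference of -0.02. TYMS, the thymidylate synthase, had a difference of -0.08, and CCNB2, a cyclin of mitosis, of -0.15. KIF11, the motor that separates spindle poles, had a difference of 0.02, and ECT2, which sets the plane of cytokinesis, of 0.26. ANLN, the anillin scaffold of the cleavage furrow, had 2.13, 2.28, 2.40 and 2.64 CPM in lens libraries 1 to 4, 3.25, 3.17 and 2.23 CPM in lens libraries 12 to 14, and 1.29, 2.65 and 4.05 CPM at the lowest, median and highest control library, so that both lens sets lay inside the control range. BUB3, a checkpoint protein that also has roles outside mitosis, had 14.4, 13.9, 17.2 and 12.6 CPM in lens libraries 1 to 4, 13, 13.3 and 14.3 CPM in lens libraries 12 to 14, and 11.7, 13.9 and 15.9 CPM at the lowest, median and highest control library. Lens library 3 stood above every other library in BUB3.

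With a filter at a mean of 0.1 CPM and log2(CPM + 0.1), 35 of the 40 genes could be tested, and in lens libraries 1 to 4 against control 1 more gene passed beside the 4, while 1435 of 14891 genes passed in that fit, or 9.64%. This was NUSAP1, a microtubule protein of the spindle, named after its values were seen. It had 0.635, 0.713, 0.469 and 0.8 CPM in lens libraries 1 to 4, 0.467, 0.272 and 0.243 CPM in lens libraries 12 to 14, and 0.229, 0.365 and 0.534 CPM at the lowest, median and highest control library, a log2 difference of 0.73 (limma adjusted p = 0.0478). Lens library 3 overlapped the control libraries.

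**Figure D3:**
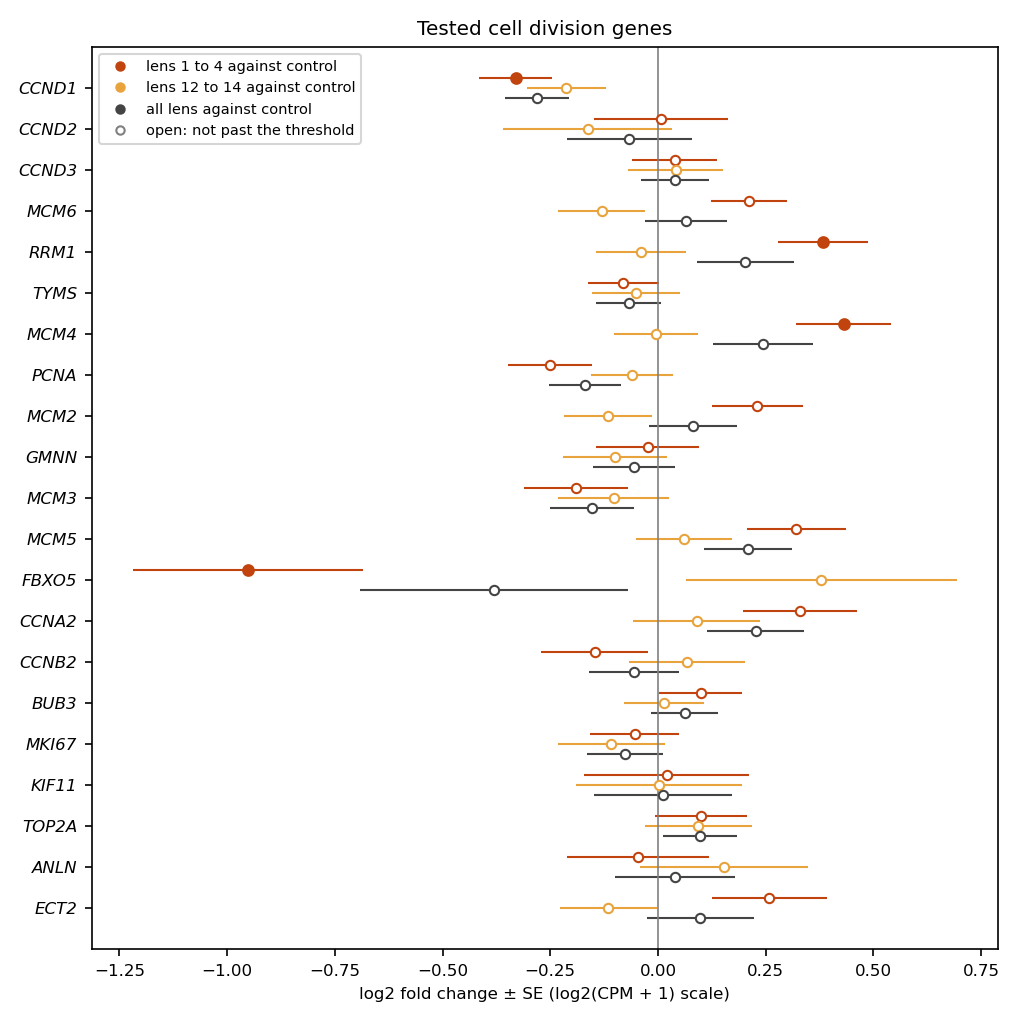
Log2 fold change with its SE, on the log2(CPM + 1) scale, of the 21 tested genes in lens libraries 1 to 4, lens libraries 12 to 14 and all lens libraries, each against control, where filled points passed an adjusted p of 0.05. Filled points are those of MCM4 and RRM1, right of 0, and CCND1 and FBXO5, left of 0, in lens libraries 1 to 4.

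Lens libraries 12 to 14 differed from the control libraries in 0 of the 21 tested genes, with 0% of all 11005 genes past the threshold. At an unadjusted p under 0.05, CCND1 passed among the 21, beside 5.19% of all genes. An exact rank-sum test called 0 of the 21 and 0 genes in all, but its smallest p here is 0.0167. A floor that high leaves little room for a call after adjustment. None of the 21 had its groups apart, beside 1.65% of all genes. CCND1 had a log2 difference of -0.21 (SE 0.092, limma adjusted p = 0.942), FBXO5 of 0.38 (SE 0.314, limma adjusted p = 0.981), RRM1 of -0.04 (SE 0.105) and MCM4 of -0.0045 (SE 0.098). These fits share their control libraries with those of lens libraries 1 to 4, so their values stand side by side only. The median over the 21 was -0.04, against -0.0049 over all genes.

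A direct comparison of the lens sets followed. FBXO5 was the 1 of 21 tested genes past the threshold, beside 5.01% of all genes tested, 3.53% higher and 1.47% lower. Of all calls 70.6% were higher in lens libraries 1 to 4, against 49.0%, 39.0% and 53.7% under the same 3 scalings. FBXO5 averaged 3.5 ± 0.211 CPM in lens libraries 1 to 4 and 10.4 ± 2.19 CPM in lens libraries 12 to 14 (SD, n = 4 and 3), a log2 difference of -1.33 (SE 0.126, limma adjusted p = 0.0051). It passed in 7 of 7 fits that left out a library. The split was chosen with earlier results of these data known, so these passes are not independent support. Control libraries alone ranged from 3.35 to 15.4 CPM in FBXO5. Without adjustment 6 of the 21 had p under 0.05, beside 24.7% of all genes. In 7 of the 21 the sets did not overlap, which were CCNA2, ECT2, MCM2, MCM5, MCM6 and RRM1, higher in lens libraries 1 to 4, and FBXO5, lower, beside 23.1% of all genes, 15.5% higher and 7.57% lower. MCM6, RRM1 and MCM4 had log2 differences of 0.34, 0.42 and 0.44 (limma adjusted p = 0.0692, 0.0793 and 0.0943), and each passed without lens library 4. That library is the only one of lens libraries 1 to 4 with W-linked reads near 0, so leaving it out made sex less balanced. With the W-linked level as covariate FBXO5 alone of the 21 passed. With 4 and 3 libraries an exact rank-sum test cannot go below p = 0.0571. CCND1 had a difference of -0.12 between the sets (limma adjusted p = 0.520), and both sets lay on the low side of control.

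**Figure D4:**
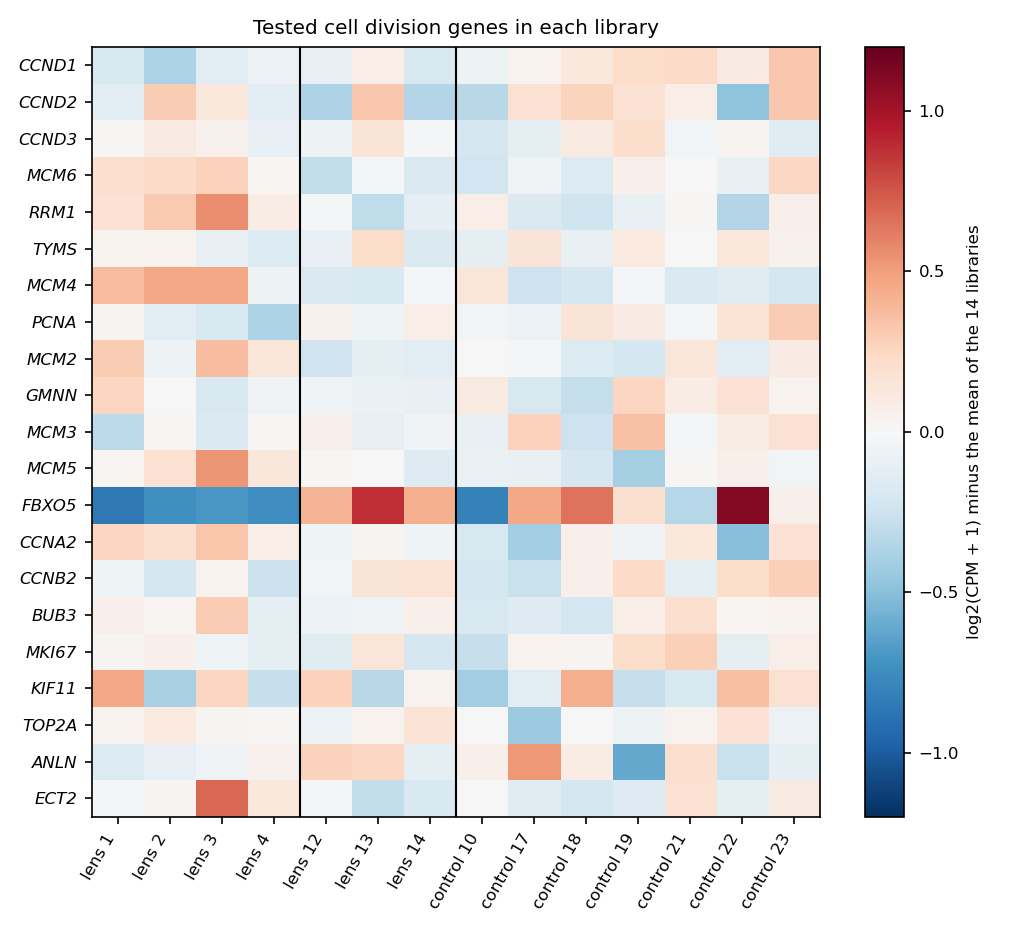
Log2(CPM + 1) of each of the 21 tested genes in each library as a difference from the mean of the 14 libraries, in colour, with lens libraries left of control libraries. FBXO5 is low in lens libraries 1 to 4 and in control library 10, at 3.20 to 3.69 and 3.35 CPM.

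Other genes of cell division, a list of 95 of which 84 were in the table and 52 were tested, gave 0 calls in lens against control, where RFC4 (0.46) and UHRF1 (0.58) had the smallest p (limma adjusted p = 0.166 and 0.179). In lens libraries 1 to 4 against control 3 were higher and 3 lower, and these 6 of 52 are a share near the 13.4% of all genes tested, of which 9.4% were higher and 4.05% lower. UHRF1, which guides DNA methylation to newly copied DNA, averaged 3.59 ± 0.526 CPM in lens libraries 1 to 4, 1.82 ± 0.376 CPM in lens libraries 12 to 14 and 1.51 ± 0.513 CPM in control libraries, and its lowest value in lens libraries 1 to 4, 2.94 CPM, lay above the highest control value, 2.6 CPM. RFC4, a subunit of the loader that places PCNA on DNA, averaged 5.42 ± 0.603 CPM in lens libraries 1 to 4, 3.51 ± 0.250 CPM in lens libraries 12 to 14 and 3.03 ± 0.574 CPM in control libraries. Their log2 differences between lens libraries 1 to 4 and control were 0.88 and 0.68 (limma adjusted p = 0.00214 and 0.00315). SMC4, a condensin subunit, had a difference of 0.45 (limma adjusted p = 0.0225).

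Of the lower genes in that list CIT, citron kinase, a kinase of cytokinesis with a shorter form in neurons of mammals, had the smallest p. CIT averaged 109 ± 7.28 CPM in lens libraries 1 to 4, 140 ± 1.13 CPM in lens libraries 12 to 14 and 138 ± 10.4 CPM in control libraries, with a log2 difference of -0.34 between lens libraries 1 to 4 and control (limma adjusted p = 0.00486). The remaining lower genes, TTK, a checkpoint kinase, and ATAD2, a chromatin ATPase, were named after their values were seen and had differences of -0.36 and -0.26 (limma adjusted p = 0.0419 and 0.0487). Lens libraries 12 to 14 against control gave 0 calls in the list, with ORC2 (-0.24) and RPA1 (0.16) at the smallest p (limma adjusted p = 0.942 for each). Between the lens sets UHRF1 (0.70) and RFC4 (0.51) were higher and CIT (-0.35) and LIN9 (-0.42) lower in lens libraries 1 to 4. These 2 higher and 2 lower calls among the 52 stand beside 5.01% of all genes tested, 3.53% higher and 1.47% lower. The median log2 difference of the 52 in lens libraries 1 to 4 against control was 0.02, against 0.04 over all genes.

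Brakes on the cell cycle, a list of 22 of which 19 were in the table and 14 were tested, had 0 genes past the threshold in each of the 4 comparisons. BTG2, an antiproliferative protein, averaged 9.74 ± 1.79 CPM in lens libraries and 11 ± 1.68 CPM in control libraries, and CDKN1C, the inhibitor p57, averaged 1.38 ± 0.256 CPM in lens libraries and 1.66 ± 0.352 CPM in control libraries. In lens libraries 1 to 4 against control the smallest p belonged to CCNG2 (0.16) and CDKN1A, the inhibitor p21 (-0.28), with limma adjusted p of 0.158 and 0.162. FZR1, which activates the anaphase-promoting complex that FBXO5 inhibits, had log2 differences of -0.14 in lens libraries 12 to 14 against control and 0.26 between the lens sets (limma adjusted p = 0.981 and 0.177).

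Marker lists of cell types, among them cells that could divide, gave sums that overlapped between lens and control libraries. Oligodendrocyte markers, 5 of 6 in the table, summed to 121 to 172 CPM in lens libraries and 104 to 221 CPM in control libraries. Endothelium markers, 9 of 9 in the table, summed to 56.4 to 68.0 CPM in lens libraries and 51.9 to 73.5 CPM in control libraries. Of 12 retinal progenitor markers 11 were in the table and 2 averaged at least 1 CPM, LIN28B with 8.53 and FGF19 with 1.44 CPM, while HES5, LIN28A and HMGA2 averaged under 0.1 CPM. The progenitor sum was 10.8 to 14 CPM in lens libraries and 11 to 14.2 CPM in control libraries. Of 8 Mueller glia markers 7 were in the table, and their sum was 1150 to 1341 CPM in lens libraries 1 to 4, 1019 to 1247 CPM in lens libraries 12 to 14, beside 982 to 1200 CPM in control libraries. Of 12 microglia and leukocyte markers 11 were in the table, with a sum of 11.9 to 17.6 CPM in lens libraries and 10.3 to 16.1 CPM in control libraries. Of 11 markers of retinal neurons 9 were in the table, each at 1 CPM or more, with a sum of 862 to 1075 CPM in lens libraries 1 to 4, 718 to 898 CPM in lens libraries 12 to 14, beside 724 to 989 CPM in control libraries. Between the lens sets the log2 difference was positive in 6 of the 6 tested Mueller glia markers, with a median of 0.09. In the neuron markers it was positive in 9 of the 9, with a median of 0.17, against 0.04 over all genes. The share of positive differences over all genes was not counted, and other scalings were not tried for these lists. In lens libraries 1 to 4 against control 1 of the 9 passed and 8 did not, beside 13.4% of all genes tested, 9.4% higher. The 1 was VSX1, a bipolar cell factor, higher in lens libraries 1 to 4, with 82.2 ± 7.89 CPM there, 55.3 ± 4.28 CPM in lens libraries 12 to 14 and 58.1 ± 4.48 CPM in control libraries (log2 difference 0.49 against control, limma adjusted p = 0.00163). Pigment epithelium markers, 8 of 8 in the table, summed to 2.43 to 10.9 CPM in lens libraries and 2.76 to 5.86 CPM in control libraries, and 2 of 10 red blood cell markers were in the table, with SLC4A1 listed at 0 in 14 of 14 libraries. The part of these cell types in the levels of the cell division genes was not tested.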

How the data were processed

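Total RNA of 14 retinas, 7 from lens eyes and 7 from control eyes, was sequenced, per the labels' protocols, with a strand-keeping kit after removal of ribosomal RNA. STAR, Partek and the build GRCg6a are named in the submitters' processing notes, without role or version, and neither the notes nor the labels say how reads were counted. The authors deposited 1 table of CPM values, reads per 1000000, with a column per library and a constant of 0.0001 in every cell. The unit was read from the values: among those worth up to 20 reads, 94.0% to 95.3% were whole multiples of 1 read, within 0.05 reads, too few for a count model. The table holds 0 columns of other series.

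Testing took the 11005 of 18631 genes whose mean over 14 libraries reached 1 CPM, with limma 3.58.1 in R 4.3.3 on log2(CPM + 1), two-sided, with a mean-variance trend and Benjamini-Hochberg adjustment over all genes tested, a design chosen for CPM values. Fold changes on this scale understate those of low genes. Each comparison used the libraries of its groups only, and the script was tested on simulated data. Members past the threshold in any comparison are given with each lens library's value and the lowest, median and highest control value. The same holds for MKI67, TOP2A, CDK1, PCNA and CCND1, the smallest p in lens against control and the gene of highest CPM in each role. From each other list up to 4 genes past the threshold, or else the 2 of smallest p, are named. The genes, lists and the split of lens libraries were chosen with earlier results of these data known. Positions are those of the table, and chromosome names came from RefSeq gene names of GRCg7b, which matched 15419 symbols. Alternatives changed the pseudocount, filter, scaling, variance model, covariates, test and libraries.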

Additional observations from a re-analysis of the deposited data

Results flagged for a closer look

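Among 33 groups of 4 or 7 libraries examined in the 11 genes chosen for values in each lens library, 2 had a lone far library. Chance alone flags about 5% of groups. CDK1 in lens libraries 1 to 4 was highest in lens library 3, at 0.674 CPM, with the other 3 at 0.305 to 0.347 CPM. BUB3 in the lens group was highest in lens library 3, at 17.2 CPM, with the other 6 at 12.6 to 14.4 CPM. FBXO5 differed between lens libraries 1 to 4 and 12 to 14 by -1.33 on the log2 scale, a difference between sets that wore the same lens for the same time.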

How the results depend on the processing

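In lens against control 0 of the 21 tested genes passed in any alternative, and the genes called in all were 16 with library weights, 78 in a fit of 3 groups and 0 to 15 when a library was left out. In lens libraries 1 to 4 against control the 4 members passed under each scaling, each pseudocount and both covariates, and quantile normalization added PCNA. Robust variance lost FBXO5, and no filter lost FBXO5 and added NUSAP1. An exact rank-sum test called 0 genes and 0 members, and leaving out a library gave 724 to 1636 genes and 0 to 4 members. In lens libraries 12 to 14 against control library weights called 1 gene, and leaving out a library gave 0 to 2. Between the lens sets the genes called were 261 with no filter, 1239 with library weights, 1420 with the W-linked level and 278 with the eye letter as covariate, 906 in a fit of 3 groups, 0 by rank-sum test and 9 to 807 when a library was left out. The members called there were 4 with library weights, 3 in a fit of 3 groups, 0 by rank-sum test and 1 to 4 when a library was left out. Between the lens sets the rank-sum test could call no gene, since its smallest p with 4 and 3 libraries is 0.0571. In lens libraries 1 to 4 against control the smallest p of that test, 0.00606, left little room for a call after adjustment. The cause of the other shifts was not tested.

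Of the members, the differences of 10 were recomputed under each alternative (MCM4, CCND1, RRM1, FBXO5, MKI67, TOP2A, PCNA, MCM6, BUB3 and ANLN), except where a filter left one out. Among these, signs turned only in differences near 0, with limma adjusted p of 0.802 or more. ANLN was -0.0605 to 0.129 in lens against control and -0.146 to 0.0441 in lens libraries 1 to 4 against control when a library was left out, and 0.0309 there with the W-linked covariate. For lens libraries 12 to 14 against control MCM4 was 0.00190 with median-of-ratios scaling, 0.00480 with trimmed means, 0.00518 with quantile normalization, 0.00267 when rescaled to the listed genes, 0.0317 with library weights and -0.0585 to 0.0396 when a library was left out, where RRM1 was -0.104 to 0.0412 and BUB3 was -0.0239 to 0.0514. Between the lens sets TOP2A was -0.0208 with median-of-ratios scaling, -0.0327 with trimmed means, -0.0532 with quantile normalization, -0.000912 with library weights, -0.00505 with the W-linked covariate and -0.0494 to 0.0648 when a library was left out. MKI67 there was -0.00285 with trimmed means, -0.0135 with quantile normalization, -0.0444 with the W-linked covariate and -0.0134 to 0.162 when a library was left out.

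Rescaling to the listed genes left 9 genes under 1 CPM. No paired analysis was possible because the labels give no bird and no pairing of retinas. Depth limits the 19 genes under 1 CPM most.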
